A study of Mus musculus with 12 samples.

Results

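The 10 genes described here mark or pattern the boundary between midbrain and hindbrain and the dorsal midbrain beside it: En1, En2, Cnpy1, Pax2, Pax5, Pax8, Fgf17, Fgf18, Dmbx1 and Wnt1. They were taken by symbol from a table of 24421 genes, and all 10 were among the 14810 genes that passed the filter on low counts and were tested. The set was chosen with the genotype difference at embryonic day 9.5 (E9.5) in view, so for these genes the E9.5 values, and every value computed from the E9.5 libraries, are descriptions that carry no test. The E9.0 libraries are separate samples and were tested, although results of both stages were known when the set was drawn up.

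RNA was sequenced from C57Bl/6 mouse embryos with a neural crest-specific alteration of Eftud2, the gene of a spliceosomal GTPase. The 12 libraries form 4 groups of 3: Eftud2+/- at E9.0, Eftud2-/- at E9.0, Eftud2+/- at E9.5 and Eftud2-/- at E9.5, none of them treated. The Eftud2+/- embryos, named as controls, carry the alteration on 1 allele, and none of the 4 groups is wild type. The labels name neither the Cre driver nor the number of embryos or somites behind a library, and they give the material as neural crest cells, as cranial nerve ganglia and, in the protocol, as heads. Eftud2+/- and Eftud2-/- are called heterozygous and homozygous below.

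The boundary, or isthmus, is a signalling centre of the neural tube that forms where Otx2-expressing midbrain meets Gbx2-expressing hindbrain. Cells there secrete FGF8 and its relatives FGF17 and FGF18, cells just anterior to them secrete WNT1, and the transcription factors PAX2, PAX5, PAX8, EN1 and EN2 maintain this signalling and the midbrain and cerebellar territory around it. In mice that lack Wnt1 or Fgf8 function this territory is lost. Wnt1 is also active along the dorsal midline from which neural crest leaves.

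Total counts ran from 13914543 to 31172708 per library, and 17311 to 19783 genes had at least 1 count. Ribosomal Rn45s took 37.4% of heterozygous E9.0 replicate 1 and 4.40% to 16.2% of the others, and the library sizes were scaled by TMM factors before CPM, the usual library-size-relative unit of counts, were computed. Eftud2, the targeted gene, lay at 275 to 302 CPM in heterozygous and 232 to 236 CPM in homozygous E9.0 libraries (edgeR adjusted p 0.0193). Its E9.5 levels were 248 to 264 against 221 to 226 CPM (edgeR adjusted p 0.0906). The genotypes were separate each time, and no library was near 0. The crest genes Sox10 and Foxd3 and the ganglion genes Isl1, Neurod1 and Pou4f1 were detected in each of the 4 groups, Foxd3 at 0.300 to 1.08 CPM in homozygous E9.5 libraries, and neural tube markers summed to at least 1000 CPM in each library. Over all tested genes, 64 were higher and 23 lower in homozygous libraries at E9.0, and 176 higher and 104 lower at E9.5. With total counts in place of TMM the split was 75 against 3 and 58 against 65, and at E9.0 the median of all genes moved to 0.19 on the log2 scale.

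Among the members with a RefSeq promoter entry, sequence upstream of the start is shown for the 3 with the largest deficit at E9.5. Of the 10 genes, 8 have an entry, with 11 starts between them. Each run holds the 180 bases from 250 to 71 before the RefSeq start (GRCm38.p6), read 5′ to 3′ on the gene's strand.
En1, chr1:120602237-120602416, plus strand: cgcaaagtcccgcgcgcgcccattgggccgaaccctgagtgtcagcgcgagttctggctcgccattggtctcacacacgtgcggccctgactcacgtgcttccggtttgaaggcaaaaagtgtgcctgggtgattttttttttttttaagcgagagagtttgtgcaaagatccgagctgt
Cnpy1 (the upstream of its starts), chr5:28245859-28246038, minus strand: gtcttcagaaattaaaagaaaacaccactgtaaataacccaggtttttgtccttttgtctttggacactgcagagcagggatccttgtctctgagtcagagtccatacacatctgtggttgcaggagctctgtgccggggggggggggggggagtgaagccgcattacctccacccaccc
Pax5, chr4:44710765-44710944, minus strand: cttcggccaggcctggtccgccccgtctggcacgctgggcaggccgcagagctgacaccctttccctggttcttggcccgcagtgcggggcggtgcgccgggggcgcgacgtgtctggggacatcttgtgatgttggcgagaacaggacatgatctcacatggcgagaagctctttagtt

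The runs differ in composition. En1 had 55.0% GC and 15 CpG dinucleotides, Pax5 had 65.0% and 15, and Cnpy1 had 52.2% and 2, against a median of 51.1% and 4 over 32851 windows of the same length. They were searched on both strands for the homeodomain core TAATTA, then the Otx and Dmbx core TAATCC, then the Lef/Tcf core CTTTGA and lastly a core of the Pax2/5/8 site, GCGTGAC. None of these letters was found in the 11 windows of the members, so no base is in capitals. The same cores were present in 3.86%, 4.75%, 10.8% and 1.04% of all windows.

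Each of the 10 genes was lower on average in homozygous than in heterozygous embryos at E9.0, and 9 of 10 were at E9.5. As a ratio of mean CPM the deficit at E9.5 was 32.2-fold for Cnpy1, which rests on 1 to 4 counts per homozygous library, 25.3-fold for En2 and 15.1-fold for En1, and was 5.45-fold for Pax5 and 3.62-fold for Dmbx1. Wnt1 and Fgf18 were lower by 1.91-fold and 1.82-fold, Fgf17 and Pax8 by 1.39-fold and 1.28-fold with overlapping libraries, and Pax2 stood at 111% of the heterozygous mean. At E9.0 the deficits of the first 3 were smaller, at 5.51-fold for Cnpy1, 3.01-fold for En2 and 2.18-fold for En1. The sample is bulk RNA, in which fewer cells expressing a gene and less RNA per cell cannot be told apart.

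**Figure D1:**
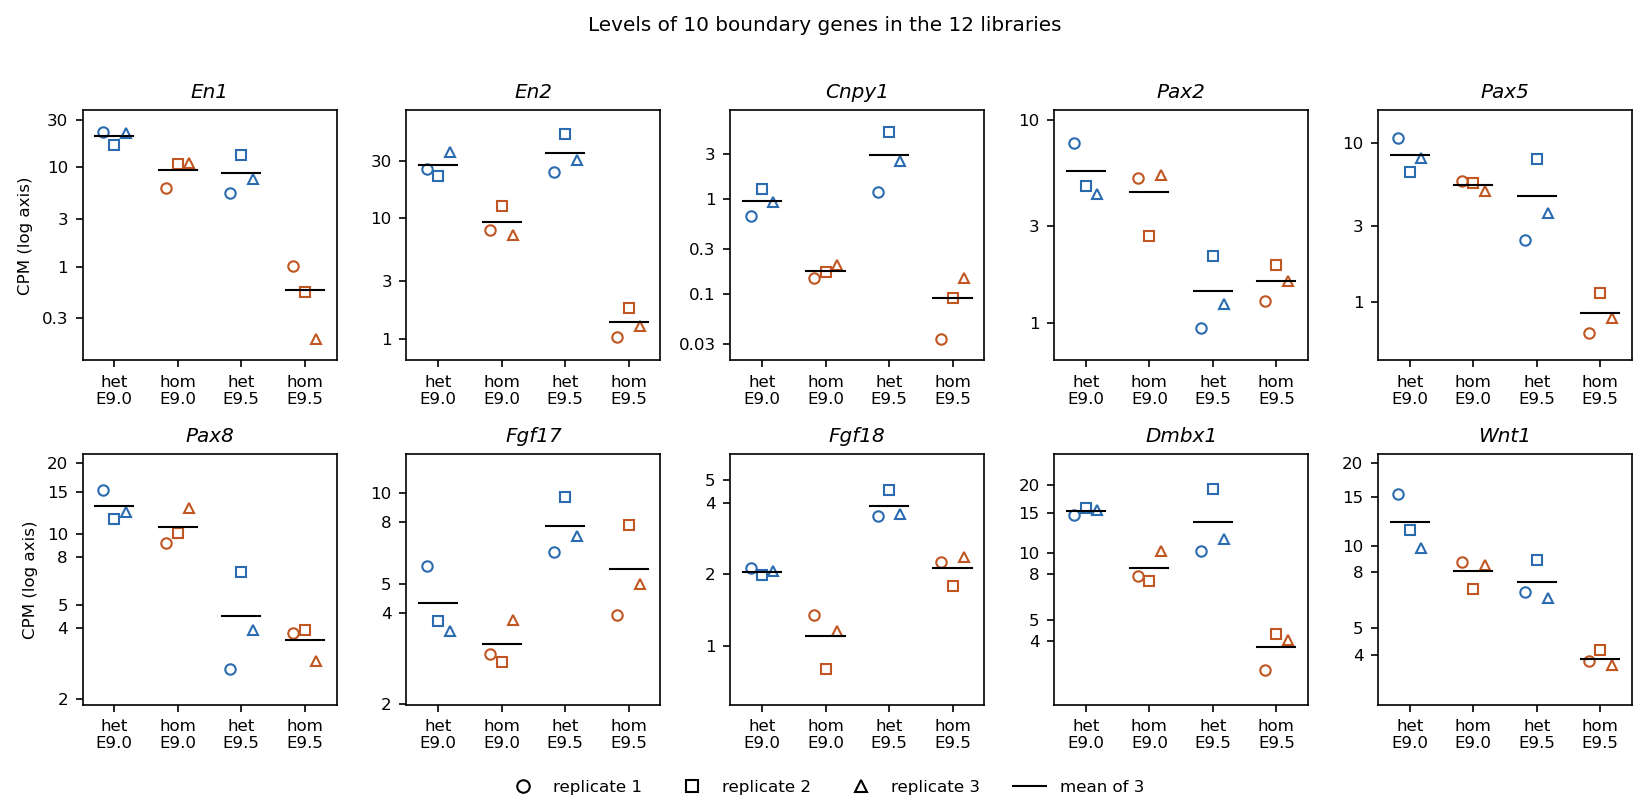
Level of each of the 10 genes in CPM (log axis, scaled separately per gene) in the 12 libraries, with points by replicate number and a line at the mean of 3. In 7 panels (En1, En2, Cnpy1, Pax5, Fgf18, Dmbx1 and Wnt1) all homozygous points lie below all heterozygous points at each stage.

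At E9.0 all homozygous libraries lay below all heterozygous ones in 7 of 10 members (En1, En2, Cnpy1, Pax5, Fgf18, Dmbx1 and Wnt1), where 8.20% of all tested genes did. The same 7 were apart at E9.5, where 9.47% of all genes were. At E9.0, 0 of 10 passed an adjusted p of 0.05 in edgeR's quasi-likelihood test, against 0.587% of all genes in either direction and 0.155% lower. Without adjustment 6 of 10 had a p under 0.05, as did 13.3% of all genes. DESeq2 called 2 (En2 and Dmbx1, with no adjusted p given for Cnpy1) against 1.37% of all genes, and limma-voom called 0 against 0.439%. A fit of the E9.0 libraries alone, whose filter left out Cnpy1, called En1, En2 and Dmbx1 against 0.467% of all genes. An exact permutation test of 3 libraries against 3 cannot go below 0.10, the value that each of the 7 separated genes had.

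The members' median log2 difference was -0.74 for E9.0 and -1.39 for E9.5, while that of all tested genes was -0.00 at each stage. Past a log2 difference of -1 lay 3 members at E9.0 (En1, En2 and Cnpy1) with 0.317% of all genes, and 5 at E9.5 (those and Pax5 and Dmbx1) with 0.587%. At E9.5, 7 members were past the threshold, where 1.89% of all genes were in either direction and 0.702% were lower. Because the members were selected on this contrast, nothing is read from that count.

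Cnpy1, En2 and En1 had the largest deficits at both stages, but their order among themselves is not resolved. Without homozygous E9.0 replicate 1, Fgf18 (log2 difference -1.09) passed En1 (-0.90). Without heterozygous E9.5 replicate 2, En2 (-4.29) passed Cnpy1 (-4.26). At E9.0, Cnpy1, En2 and En1 led with homozygous means of 18.1%, 33.3% and 45.8% of the heterozygous mean. Fgf18 (53.5%), Dmbx1 (55.2%), Pax5 (64.3%) and Wnt1 (65.9%) followed, and Fgf17, Pax2 and Pax8 came last at 73.0%, 79.0% and 81.3%. No neighbours in this order were further apart on the log2 scale than the sum of their standard errors (SE). By E9.5 Cnpy1, En2 and En1 were at 3.11%, 3.95% and 6.64%, and Pax5 (18.3%), Dmbx1 (27.6%) and Wnt1 (52.4%) had moved ahead of Fgf18 (55.0%). As a description, the widest steps on the log2 scale were those between En1 and Pax5 (1.44) and between Dmbx1 and Wnt1 (0.93). The other 7 of 9 steps were within the sum of their SE, among them Pax5 to Dmbx1 (0.58 against 0.66) and Wnt1 to Fgf18 (0.06 against 0.35), so the order within these pairs is not resolved. Fgf17, Pax8 and Pax2 at 72.0%, 78.4% and 111% closed the order again.

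**Figure D2:**
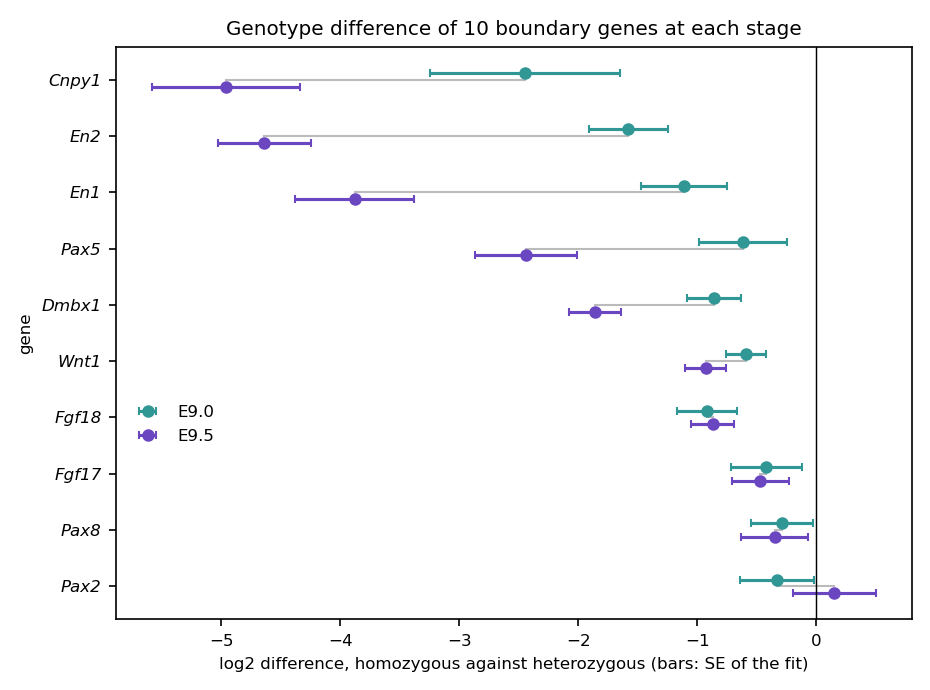
Fitted log2 difference of homozygous against heterozygous libraries at E9.0 and E9.5 for the 10 genes, ordered by the E9.5 value, with bars of 1 SE of the edgeR fit (3 libraries per group). Cnpy1, En2, En1, Pax5 and Dmbx1 lie further left at E9.5 than at E9.0 by more than the bars, and the other 5 pairs are close together.

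The engrailed genes encode homeodomain repressors that set up midbrain and cerebellar identity, and their loss was the deepest among the transcription factors. En2 (chr5:28165694-28172166, plus strand, GRCm38) was at 25.5, 22.4 and 35.3 CPM in heterozygous E9.0 libraries and at 7.89, 12.5 and 7.22 CPM in homozygous ones. The groups were separate, with a log2 difference of -1.58 ± 0.33 (SE, edgeR adjusted p 0.0907, n = 3 each). At E9.5 En2 was at 24.3, 49.7 and 30.6 CPM in heterozygous embryos and at 1.04, 1.81 and 1.27 CPM in homozygous ones, a log2 difference of -4.64 ± 0.39. Even the highest homozygous library was far below the lowest heterozygous one.

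En1 (chr1:120602418-120607992, plus strand) was at 22.7, 16.9 and 22.3 CPM in heterozygous E9.0 embryos and at 6.24, 10.9 and 11.1 CPM in homozygous ones. The log2 difference was -1.11 ± 0.36 (SE, edgeR adjusted p 0.238), and homozygous replicate 1 was the lowest. At E9.5 the heterozygous libraries had 5.52, 13.2 and 7.63 CPM and the homozygous ones 1.01, 0.552 and 0.187 CPM, a log2 difference of -3.88 ± 0.50 (-4.49 without homozygous replicate 1). The lowest homozygous library rested on 5 counts, and the homozygous E9.5 libraries spread more widely for En1 than for En2.

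Cnpy1 (chr5:28200819-28245806, minus strand) encodes a canopy family protein known from zebrafish as a modulator of FGF signalling at the boundary, and it neighbours En2 on the chromosome. At E9.0 it was the weakest of the 10 genes, in CPM and in CPM per kb of exon. It had 0.660, 1.29 and 0.946 CPM in heterozygous and 0.15, 0.172 and 0.203 CPM in homozygous E9.0 libraries. The homozygous E9.0 libraries held 2 to 3 counts each, so the contrast is given as a ratio of summed counts, 55 against 8, which on scaled libraries is 5.64 (exact 95% interval 2.67 to 13.7, counting error only). The fitted difference did not pass the test at E9.0 (edgeR adjusted p 0.216). At E9.5 the heterozygous libraries had 1.19, 5.16 and 2.52 CPM and the homozygous ones 0.0337, 0.0921 and 0.15 CPM. These are 286 counts against 8, with 1 to 4 per homozygous library, and a ratio of 33.4 (16.7 to 78.2). Cnpy1 was thus close to the detection limit in homozygous embryos at each stage.

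PAX2, PAX5 and PAX8 are paired-domain factors of 1 subfamily that act in part redundantly at the boundary, and their genes behaved differently here. Pax5 (chr4:44524757-44710487, minus strand) was at 10.7, 6.54 and 8.04 CPM in heterozygous E9.0 libraries and at 5.71, 5.55 and 5.0 CPM in homozygous ones. The gap between the groups was narrow and the log2 difference was -0.62 ± 0.37 (SE, edgeR adjusted p 0.491). Pax5 at E9.5 had 2.44, 7.92 and 3.62 CPM in heterozygous and 0.640, 1.14 and 0.787 CPM in homozygous libraries, a log2 difference of -2.44 ± 0.43.

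Pax2 (chr19:44756045-44837871, plus strand) was at 7.70, 4.72 and 4.30 CPM in heterozygous and 5.18, 2.69 and 5.33 CPM in homozygous E9.0 libraries, and the groups overlapped (log2 difference -0.33 ± 0.31, edgeR adjusted p 0.689). At E9.5 it was at 0.945, 2.14 and 1.24 CPM against 1.28, 1.93 and 1.61 CPM, again overlapping. Pax8 (chr2:24420560-24475599, minus strand) had 15.3, 11.6 and 12.4 CPM in heterozygous and 9.17, 10.1 and 12.8 CPM in homozygous E9.0 libraries (log2 difference -0.29 ± 0.26, edgeR adjusted p 0.671). At E9.5 it was at 2.68, 6.92 and 3.90 CPM against 3.81, 3.90 and 2.89 CPM, with homozygous libraries inside the heterozygous range. In neither gene was a deficit like that of Pax5 seen at E9.5.

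Pax2 and Pax8 are also used outside the brain, in the otic placode, the nephric lineage and, for Pax8, the thyroid. Of 11 otic and placode markers 2 rose in homozygous embryos at E9.5 (among them Tbx1, by 0.96 ± 0.12, edgeR adjusted p 9.2e-04), and their sum was 164 to 179 CPM in heterozygous and 198 to 210 CPM in homozygous libraries. Of 8 thyroid and pharyngeal endoderm markers 2 rose (Hhex and Epcam), with sums of 120 to 131 against 147 to 172 CPM. Without adjustment 7 of 11 and 6 of 8 had a p under 0.05 at E9.5. At E9.0, 0 of either list passed in edgeR, with 1 of 11 and 4 of 8 at an unadjusted p under 0.05. The otic and placode list then summed to 209 to 234 against 213 to 243 CPM. For the endoderm list the E9.0 sums were 133 to 149 against 154 to 167 CPM. The part of these tissues in the Pax2 and Pax8 levels was not tested. Of 12 nephric and trunk genes 7 were tested and 0 were called at either stage by edgeR, with 0 at an unadjusted p under 0.05. The spans of Pax2, Pax5 and Pax8, introns included, overlap 3, 4 and 1 other annotated genes, and that of En2 overlaps 1. Shared exon bases were not examined, and the strand setting of the counting is not given in the sources used here. Whether reads of antisense genes among them entered the counts is thus not known.

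Among the secreted signals, Wnt1 (chr15:98789857-98793837, plus strand), the ligand of the caudal midbrain and dorsal midline, was at 15.4, 11.4 and 9.80 CPM in heterozygous E9.0 libraries and at 8.72, 6.93 and 8.51 CPM in homozygous ones. The groups were separate by a small margin, with a log2 difference of -0.59 ± 0.17 (SE, edgeR adjusted p 0.149). Wnt1 at E9.5 had 6.76, 8.89 and 6.46 CPM against 3.78, 4.14 and 3.67 CPM, a log2 difference of -0.93 ± 0.17. The homozygous E9.5 libraries were tightly grouped, and Wnt1 kept 52.4% of its heterozygous level where En2 and En1 kept 3.95% and 6.64%.

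Fgf18 (chr11:33117430-33147400, minus strand) had 2.13, 1.98 and 2.06 CPM in heterozygous and 1.35, 0.802 and 1.15 CPM in homozygous E9.0 libraries, a log2 difference of -0.92 ± 0.25 (SE, edgeR adjusted p 0.117). Later, at E9.5, it was at 3.53, 4.52 and 3.59 CPM against 2.26, 1.78 and 2.36 CPM, a log2 difference of -0.87 ± 0.18. The deficit of Fgf18 was thus of the same size at both stages. Fgf17 (chr14:70636203-70642268, minus strand), from the same subfamily as Fgf8, was at 5.72, 3.75 and 3.48 CPM against 2.93, 2.75 and 3.78 CPM at E9.0 (log2 difference -0.42 ± 0.30, edgeR adjusted p 0.566). At E9.5 Fgf17 had 6.34, 9.68 and 7.21 CPM in heterozygous and 3.94, 7.80 and 4.99 CPM in homozygous libraries, and the groups overlapped through homozygous replicate 2.

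Dmbx1 (chr4:115915119-115939926, minus strand), a homeobox gene of the dorsal midbrain, had little scatter among controls at E9.0, with 14.8, 15.8 and 15.5 CPM. The homozygous libraries were at 7.81, 7.44 and 10.2 CPM, a log2 difference of -0.86 ± 0.23 (SE, edgeR adjusted p 0.126). The E9.5 values were 10.2, 19.3 and 11.5 CPM against 2.97, 4.30 and 4.05 CPM, a log2 difference of -1.86 ± 0.22. The homozygous libraries were the lower ones throughout.

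Between the stages the members took several courses. Markers of other tissues differed as well: heart muscle markers summed to 64.3 to 222 CPM in heterozygous E9.0 and 1822 to 2480 CPM in heterozygous E9.5 libraries, and erythroid markers to 641 to 1133 and 3952 to 5173 CPM, with like shifts in homozygous ones. Their part in the members' stage differences was not tested. En2 had similar means in heterozygous embryos at E9.0 and E9.5 (27.7 ± 6.78 and 34.8 ± 13.2 CPM, SD, n = 3), while in homozygous ones it went from 9.22 ± 2.90 to 1.38 ± 0.393 CPM. Dmbx1 had the same form in its means, at 15.4 ± 0.505 and 13.7 ± 4.91 CPM in controls against 8.48 ± 1.49 and 3.77 ± 0.707 CPM. Its controls were at 14.8 to 15.8 CPM at E9.0 and at 10.2, 19.3 and 11.5 CPM at E9.5. The like control means thus rest on heterozygous E9.5 replicate 2. En1 and Pax5 were lower at the later stage in both genotypes, by -1.22 and -0.83 on the log2 scale in heterozygous and -3.99 and -2.64 in homozygous embryos. Pax2 and Pax8 were lower at E9.5 to a like degree in both, by -1.91 and -1.53 against -1.43 and -1.59.

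Fgf17 and Fgf18 went the other way: their fitted log2 differences between the stages were 0.88 and 0.92 in heterozygous and 0.83 and 0.97 in homozygous embryos. Wnt1 was lower at E9.5 by -0.71 and -1.05. Cnpy1 was higher at E9.5 in heterozygous embryos by 1.59, from 0.964 ± 0.314 to 2.96 ± 2.02 CPM, and stayed at a few counts in homozygous ones. Of all genes 0.0675% passed the test of the difference between the genotype effects of the stages, and 0 of 10 members did in edgeR. Without adjustment 4 of 10 (En1, En2, Pax5 and Dmbx1) had a p under 0.05, against 8.60% of all genes. As this test uses the E9.5 libraries, nothing is read from it. All genes passing it numbered 10, with 1 to 16 when 1 library was left out and 74 with DESeq2.

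Levels can be compared between genes only per length, as CPM per kb of exon. On this scale En1 and En2 led in heterozygous E9.0 embryos at 7.86 and 7.83, followed by Wnt1 (5.13), Dmbx1 (2.62), Fgf17 (2.56), Pax8 (2.17), Fgf18 (1.73), Pax2 (1.03), Pax5 (0.952) and Cnpy1 (0.164). In heterozygous E9.5 embryos En2 was first at 9.84, then Fgf17 (4.58), En1 (3.35), Fgf18 (3.27) and Wnt1 (3.10). In homozygous E9.5 embryos Fgf17 (3.30), Fgf18 (1.80) and Wnt1 (1.62) were the highest, and En2 (0.389) and En1 (0.222) ranked below Dmbx1 (0.644) and Pax8 (0.583). In homozygous E9.5 embryos the 3 secreted signals thus ranked above both engrailed transcripts, while En2 ranked first in the heterozygous ones.

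Heterozygous E9.5 replicate 2 was the highest of its group in 10 of 10 members, where it was for 36.7% of all genes. It was also the highest in 15 of 18 other boundary network genes, 13 of 16 dorsal midbrain genes, 10 of 12 neural progenitor markers and 5 of 6 heart muscle markers. In contrast it was the highest in 0 of 8 endothelial markers, 0 of 8 thyroid and endoderm markers and 0 of 8 ventral midbrain genes; the sum of the last was 22.7 CPM there against 45.9 and 52.0 CPM in the other two controls. Without that library the E9.5 log2 differences were -4.29 for En2, -3.45 for En1, -4.26 for Cnpy1, -1.79 for Pax5, -1.52 for Dmbx1, -0.77 for Wnt1 and -0.74 for Fgf18. Fgf17 was at -0.27, and Pax8 and Pax2 were above 0, at 0.12 and 0.57.

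The other genes of the boundary network, a list of 18 genes of known role there, had medians closer to 0 than the members. At E9.0, 0 of 18 passed in edgeR (2 at an unadjusted p under 0.05, median log2 difference -0.04), though Efna2 had an adjusted p of 0.0392 in edgeR without the filter and 0.0347 in DESeq2. At E9.5, 2 of 18 fell and 0 rose, with a median of -0.15, 5 at an unadjusted p under 0.05 and 6 with every homozygous library below every heterozygous one: Efna2, an ephrin of the caudal midbrain, fell by 0.62 ± 0.09 (SE, edgeR adjusted p 0.00126), and Axin2, a feedback target of Wnt signalling, fell by 0.46 ± 0.09 (edgeR adjusted p 0.0154). Axin2 did not keep its call with total counts or without heterozygous replicate 2 or any of the 3 homozygous replicates, where its adjusted p reached 0.126 and 0.0730.

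Fgf8, the main organizer signal, was at 12, 11.3 and 10.5 CPM in heterozygous and 13.5, 11 and 14.4 CPM in homozygous E9.0 libraries, which overlapped. At E9.5 it was at 13.0, 15.4 and 10.8 CPM against 8.26, 10.6 and 10.7 CPM, separate by a narrow margin (log2 difference -0.41 ± 0.14, edgeR adjusted p 0.163). Otx2 and Gbx2 mark the territories that meet at the boundary. Otx2 lay at 60.7 to 67.1 CPM in heterozygous and 48.1 to 56.0 CPM in homozygous E9.0 libraries, which were separate (log2 difference -0.29 ± 0.17, edgeR adjusted p 0.488). At E9.5 it was at 50.5 ± 14.4 and 36.2 ± 4.65 CPM (SD, n = 3), again with every homozygous library lower (log2 difference -0.48 ± 0.16, edgeR adjusted p 0.210). Gbx2 was at 7.32 ± 0.722 and 7.47 ± 0.625 CPM (log2 difference 0.03 ± 0.13, edgeR adjusted p 0.963), with a sign that changed at both stages when single libraries were left out and at E9.0 also with the scaling. Lmx1b, which sustains Wnt1 in the isthmus, was at 4.34 ± 0.329 against 3.48 ± 0.329 CPM at E9.5 (edgeR adjusted p 0.451), with every homozygous library lower.

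Feedback targets and modulators of FGF signalling also had medians near 0. At E9.0, 0 of 11 passed in edgeR (1 at an unadjusted p under 0.05), with a median of 0.05. At E9.5, 1 of 11 fell, with a median of -0.04 and 3 at an unadjusted p under 0.05: Il17rd, an inhibitor of FGF signalling, by 0.48 ± 0.10 (edgeR adjusted p 0.0194), with no call under total counts, in the fit of the E9.5 libraries alone or without heterozygous replicate 2 or homozygous replicate 1. The Etv and Spry genes and Dusp6, common readouts of FGF signalling, were among the 10 that did not pass. Dusp6 had a log2 difference of -0.23 ± 0.07 at E9.5 (edgeR adjusted p 0.130) with every homozygous library lower, and of 0.16 ± 0.07 at E9.0 (edgeR adjusted p 0.362) with every homozygous library higher.

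At E9.5 the dorsal midbrain and midline genes had the lowest median of the lists of other brain and boundary genes. At E9.0, 0 of 16 passed in edgeR (1 at an unadjusted p under 0.05, median -0.16), and at E9.5, 4 of 16 fell and 0 rose, with a median of -0.33. At the later stage 7 of 16 had an unadjusted p under 0.05, and 7 had every homozygous library below every heterozygous one. Tal2, a helix-loop-helix factor of the midbrain roof, fell by 2.14 ± 0.29 (edgeR adjusted p 0.00266), from 6.00, 14.5 and 7.38 CPM to 2.16, 2.27 and 1.91 CPM. The paired-box genes Pax7 and Pax3, which mark dorsal neural tube, fell by 0.84 ± 0.17 and 0.65 ± 0.11 (edgeR adjusted p 0.0194 and 0.00545). Msx1, a homeobox gene of the dorsal midline and of facial mesenchyme, fell by 0.56 ± 0.07 (edgeR adjusted p 4.9e-04). Pax7 did not pass without heterozygous replicate 2 or homozygous replicate 1 or 3, and Tal2, Pax3 and Pax7 had an adjusted p of 0.0598, 0.0649 and 0.0785 when only the E9.5 libraries were fitted; Msx1 was at 0.0635 with total counts.

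**Figure D3:**
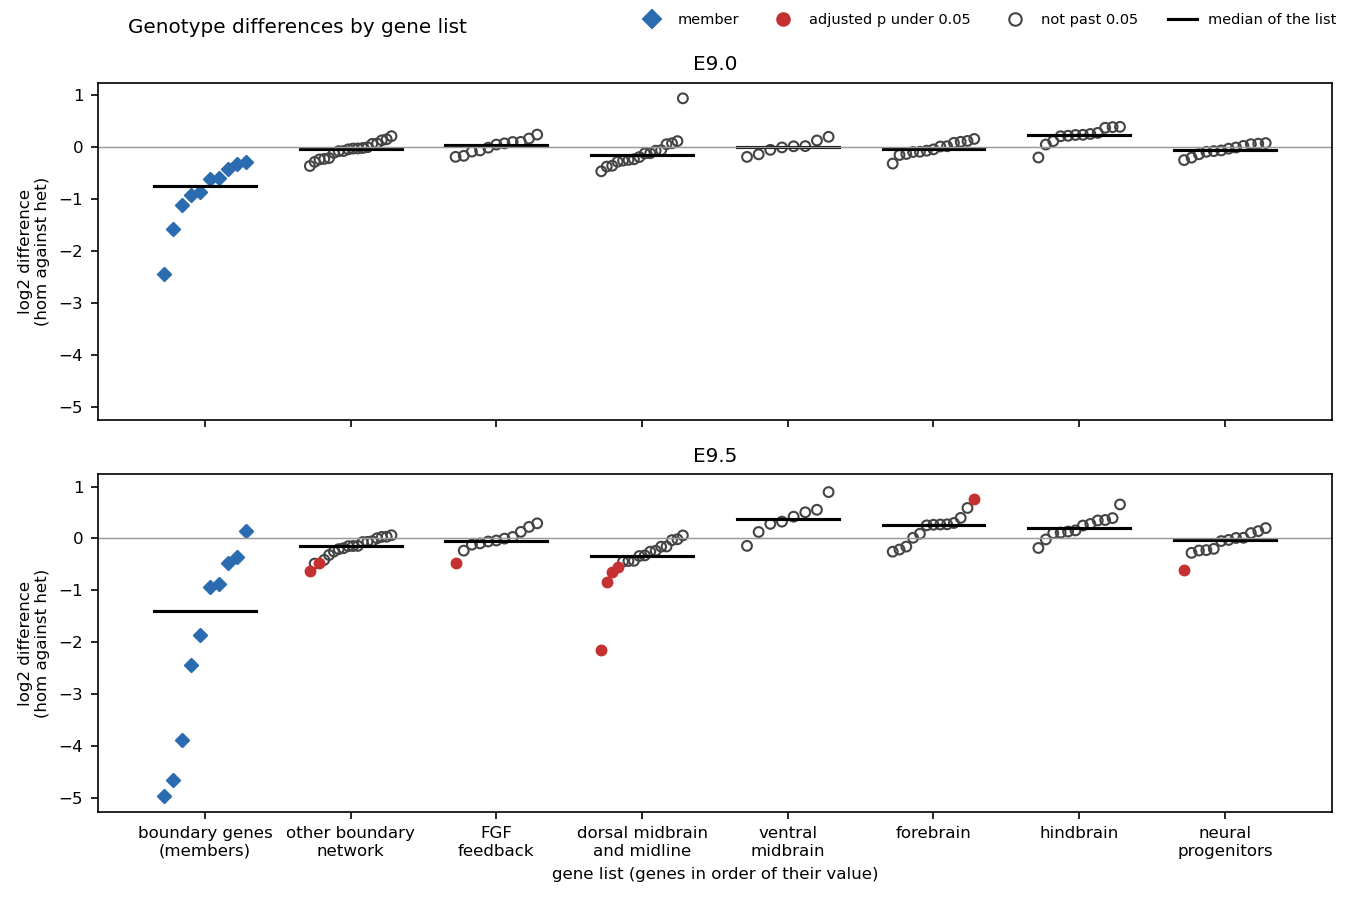
Log2 difference of homozygous against heterozygous libraries for each tested gene of 8 lists at E9.0 and E9.5, in order within a list, with a line at the list's median. The members (diamonds, drawn without a test) have medians of -0.74 and -1.39, and filled circles mark genes of the other lists past an adjusted p of 0.05.

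Lists of the neighbouring brain regions had medians closer to 0 or above it. Of 8 ventral midbrain genes 0 passed in edgeR at either stage (without adjustment 0 and 2 had a p under 0.05), with medians of 0.00 and 0.37. Of 12 hindbrain genes 0 passed (2 and 1 without adjustment), with medians of 0.23 and 0.20, and of 13 forebrain genes 1 rose at E9.5, Rax, an eye-field gene, by 0.76 ± 0.15 (edgeR adjusted p 0.0178). Among 12 general neural progenitor markers 1 fell at E9.5, Fabp7, by 0.61 ± 0.13 (edgeR adjusted p 0.0194). The sum of that list was 1044 to 1284 CPM in heterozygous and 1095 to 1180 CPM in homozygous E9.5 libraries. Its largest parts were Nes (means of 347 and 341 CPM), Sox2 (178 and 179) and Cdh2 (173 and 185). The 10 members summed to 63.9 to 127 CPM against 20.8 to 27.4 CPM. As they were selected on this contrast, nothing is read from setting the sums side by side.

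Markers of other cell types moved at the same time. Of 11 neural crest markers 5 fell at E9.5 (among them Sox10, Foxd3 and Tfap2b), and the list summed to 653 to 705 CPM in heterozygous and 492 to 619 CPM in homozygous libraries. The largest part of that sum was Crabp1, with means of 378 and 262 CPM. Not all markers were lower: 2 of 11, Ets1 (log2 difference 0.40 ± 0.19) and Ednrb (0.16 ± 0.14), were higher without passing. Of 8 endothelial markers 7 rose, among them Kdr by 0.64 ± 0.11 (edgeR adjusted p 0.00768), with sums of 168 to 236 against 303 to 334 CPM. At E9.0, 1 of 11 crest markers fell (Tfap2b, by 0.78, edgeR adjusted p 7.7e-04), with 5 at an unadjusted p under 0.05 and 5 with every homozygous library below every heterozygous one, and 0 of 8 endothelial markers passed (3 at an unadjusted p under 0.05), with sums of 259 to 277 against 307 to 315 CPM. Of 6 heart muscle markers 1 rose at E9.5 (Nkx2-5), and of 6 erythroid markers 0 passed in edgeR, with none at an unadjusted p under 0.05. None of the defining crest or endothelial markers was at 0 in any group, and the part of these shifts in the members' levels was not tested.

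The genes whose profile over the 12 libraries was most like the mean profile of the members were sought by the root mean square difference of centred log2 levels. Tal2 was the nearest, at 0.25, followed by Gareml (0.37), Flrt1 (0.40), Ddn (0.41), Pou3f1 (0.42), Apcdd1 (0.44), Dlx2 (0.46) and 2700046A07Rik (0.47). Among the members themselves Dmbx1 lay closest to that mean at 0.15 and En1 farthest at 1.24. Apcdd1, an inhibitor of Wnt signalling, went from 83.0, 67.3 and 87.2 CPM in heterozygous to 47.3, 54.6 and 62.7 CPM in homozygous E9.0 libraries, and from 44.5, 75.2 and 45.4 CPM to 31.8, 30.4 and 32.7 CPM at E9.5. As in the members, heterozygous replicate 2 was the high control at E9.5. Dlx2, a homeobox gene of forebrain and of pharyngeal arch crest, was an exception in this respect, at 12.1, 8.36 and 11.1 CPM in those controls and 3.0, 3.47 and 2.66 CPM in homozygous embryos. These 8 genes were chosen by likeness on the same libraries and are a description.

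En2 and Cnpy1 lie 28.7 kb apart on chromosome 5, on opposite strands, and the genes around them were examined within 500 kb of En2. The others tested there were Dpp6, Paxip1, Insig1, Rbm33 and Shh, and none of them passed at either stage in edgeR. Insig1, on the other side of En2, had log2 differences of -0.35 ± 0.15 and -0.29 ± 0.14 at the earlier and later stage (edgeR adjusted p 0.338 and 0.419). Rbm33, beyond Cnpy1, was at -0.08 ± 0.07 and -0.07 ± 0.07. Shh, the ventral midline signal, had differences of -0.01 ± 0.42 and 0.50 ± 0.40, with 13.8 ± 7.86 CPM in heterozygous and 19.4 ± 2.61 CPM in homozygous E9.5 libraries (SD, n = 3). In this interval log2 differences below -1 were found at En2 and Cnpy1 and at no other tested gene. Over all tested genes 0.317% lay below -1 at E9.0 and 0.587% at E9.5. As En2 and Cnpy1 were selected on the E9.5 contrast, their difference from the neighbours is a description.

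**Figure D4:**
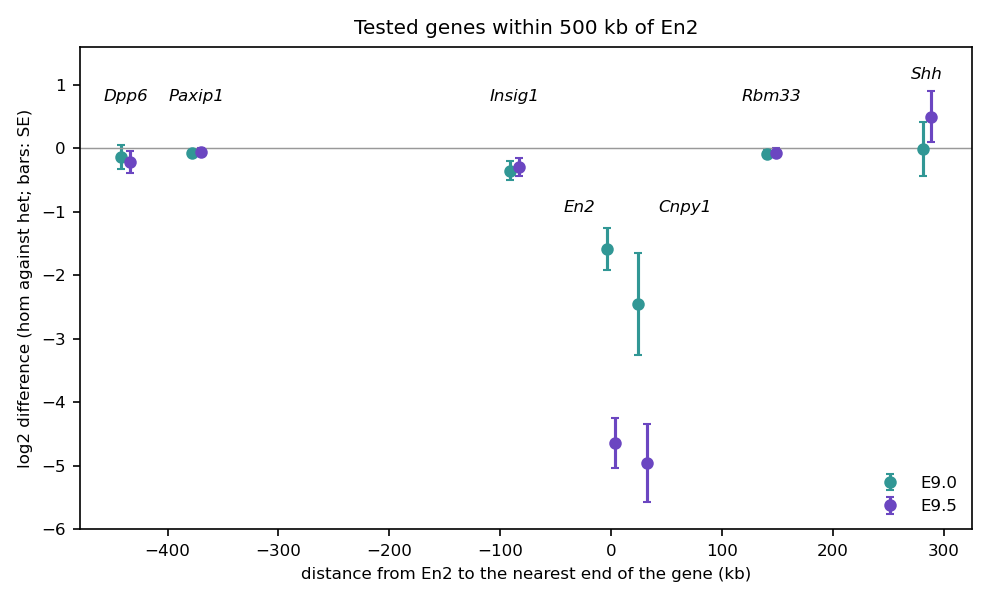
Log2 difference of homozygous against heterozygous libraries (bars, 1 SE) for the tested genes within 500 kb of En2, plotted by distance in kb from En2 to the nearest end of each gene, with both stages drawn side by side. En2 and Cnpy1 lie between -1.58 and -4.96, and the other 5 genes lie between -0.35 and 0.50.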

How the data were processed

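RNA sequencing libraries of mouse embryos were compared by genotype at each of 2 stages. The authors deposited 1 table of raw counts per gene symbol, not normalized; per the submitters' processing notes, cutadapt, STAR, featureCounts and MultiQC were used with mm10, with no versions, and the strand setting is not given in the sources used here. Genes were filtered with filterByExpr (14810 kept, 9611 left out), scaled with TMM and tested with edgeR 4.0.16 (R 4.3.3; quasi-likelihood, robust, 1 mean for each of 4 groups, two-sided) with Benjamini-Hochberg adjustment over all tested genes, and a threshold of 0.05; the common biological coefficient of variation was 8.77%. The SE is the log2 difference divided by the square root of F. Nothing in the labels says that the replicates came from separate embryos or litters, so p-values measure the spread between these libraries. Positions are from GENCODE M21 (GRCm38) and upstream sequences from RefSeq. The members, the 14 other gene lists and the tests were chosen with earlier results of these data known. Named were all members, genes of the boundary, FGF and dorsal lists past the threshold at either stage, Fgf8, Otx2, Gbx2 and Lmx1b, the 8 most similar profiles with a mean of at least 1.0 CPM (log2 with a prior count of 2), En2's neighbours and examples of other lists; some genes of these lists are not reported here. The scripts were tested on simulated data. Alternatives were DESeq2 1.42.0, limma-voom (limma 3.58.1), other scalings and filters, each stage alone, the replicate block and each library left out; the count of separated groups under other settings was added after seeing the data.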

Additional observations from a re-analysis of the deposited data

Results flagged for a closer look

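Msx1 was the named gene whose genotype difference itself differed between the stages in the edgeR fit of 12 libraries. The E9.5 difference minus the E9.0 difference was -0.67 ± 0.10 on the log2 scale (SE, edgeR interaction test, adjusted p 0.0198). That test called 10 genes in all, 1 without homozygous E9.5 replicate 3 and 16 without heterozygous E9.5 replicate 2. The Msx1 value of this test in other fits is not reported here. It was at 31.5 ± 1.54 CPM in heterozygous and 34.1 ± 1.19 CPM in homozygous embryos at E9.0, and at 47.8 ± 3.18 and 32.5 ± 0.872 CPM at E9.5 (SD, n = 3). Every homozygous E9.5 library was below every heterozygous one, and at E9.0 the libraries overlapped.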

How the results depend on the processing

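The count of members past the threshold at E9.0, 0 in the edgeR fit of 12 libraries, was 2 with DESeq2 and 3 with the E9.0 libraries alone, and 0 in each fit without 1 E9.0 library. With the replicate block in edgeR 2 passed, En2 (adjusted p 0.0486) and Cnpy1 (0.0370). In that fit 69 of 14810 genes were called in either direction and 16 were lower. Deviations of libraries with the same number correlated at 0.0297 to 0.109. The labels do not say whether the numbers pair the samples, and with 3 libraries per group these values cannot settle it. At E9.5 the count was 5 to 7 in all settings, leaving out E9.5 libraries only. All genes past the threshold numbered 203 with DESeq2 at E9.0 (87 in the reported fit; 38 to 86 without 1 E9.0 library, the lowest without homozygous replicate 3 and 39 without heterozygous replicate 2). At E9.5 they numbered 449 with DESeq2 and 123 with total counts (280; 133 to 252 without 1 E9.5 library, with 136 and 168 lacking homozygous replicate 3 or 1, and 151 lacking heterozygous replicate 2). The member median at E9.5 was -0.93 where a mean of 50 counts was required, which removed Cnpy1. Near-0 differences changed sign. At E9.0 Gbx2 was 0.01 with upper-quartile factors, 0.19 with total counts, 0.01 with limma-voom and -0.09 to 0.12 without 1 E9.0 library, and total counts gave Lmx1b 0.00, Axin2 0.13 and Pax3 0.00. At E9.5 Gbx2 was -0.05 to 0.08 without 1 E9.5 library. No member reversed at E9.0, and at E9.5 Pax2 and Pax8, with overlapping groups, ranged from -0.08 to 0.57 and from -0.62 to 0.12. Pax5 was past the threshold at E9.5 in 11 of 16 alternatives and Fgf18 in 13, and the cause was not tested. Because the members were selected on the E9.5 contrast, nothing is read from their counts past the threshold at that stage. Counts of 1 to 5 in single libraries limit Cnpy1 and En1 in homozygous embryos.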
